A study of Homo sapiens with 9 samples.

Results

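The BCL2 family of survival and death genes was followed in MDA-MB-231, a widely used human line of triple-negative breast cancer, after knockdown of ASAH1, the gene of acid ceramidase, a lysosomal enzyme that degrades ceramide. The 10 genes were chosen by name as the best-known members of the family, with earlier results of these data known. They are 10 of the 26485 genes in the tables. Cells of the NS shRNA group stably express a non-specific control hairpin, and cells of the other 2 groups stably express ASAH1 shRNA #1 or ASAH1 shRNA #2, hairpins of different sequence against the same mRNA. Each group held 3 libraries, described by the submitters as biological replicates, from cells kept in DMEM with serum, and p-values measure the spread between these libraries. The control is 1 hairpin, so both ASAH1 comparisons share the same NS shRNA libraries. The question was how the mRNAs of each arm of the family stand after ASAH1 knockdown.

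Proteins of the BCL2 family govern the opening of the mitochondrial outer membrane, the step that releases cytochrome c and starts the caspase cascade. Pro-survival members (BCL2, BCL2L1, MCL1, BCL2A1) bind and restrain the pore-forming effectors BAX and BAK1, and BH3-only members (BCL2L11, BBC3, PMAIP1, BID) release or activate the effectors. Many cancer cells, breast cancer cells among them, depend on MCL1 or on BCL-XL, the long protein of BCL2L1, and drugs that occupy the groove of these proteins are named after the BH3 helix.

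ASAH1 itself was measured first as a check of the labels. It was at 134, 136 and 135 RPM in the NS shRNA libraries, at 38.4, 41.2 and 40.9 with ASAH1 shRNA #1 and at 21.6, 22.4 and 21.1 with ASAH1 shRNA #2. RPM here are reads on a gene per 1000000 reads on all genes, scaled by TMM (trimmed mean of M values, a library scaling in edgeR). On the log2 scale ASAH1 fell by 1.76 with shRNA #1 (limma, adjusted p = 9.49e-09) and fell by 2.63 with shRNA #2 (limma, adjusted p = 5.42e-10), so the libraries of both hairpins follow their labels. Reads on genes ran from 23806003 to 49659106 per library. All 5 markers of the line (VIM, CD44, AXL, EGFR, KRT18) were present in all groups, at a sum of 4324 to 4345 RPM with NS shRNA, 4256 to 4321 with shRNA #1 and 3822 to 3901 with shRNA #2. Within this sum, mean EGFR was 105, 237 and 254 RPM, VIM 2038, 1700 and 1273 and KRT18 368, 215 and 406. The 4 luminal epithelial markers summed to 324 to 394, 182 to 222 and 239 to 296 RPM in the same order, most of it KRT19. Mean CDH1 was 13.5, 1.275 and 0.404 RPM, EPCAM 22.6, 26.3 and 33.5 and GATA3 21.9, 15.8 and 26.0. The hormone receptor genes ESR1 and PGR had at most 2 reads in any library. Mean ERBB2, the gene of HER2, was 98.4, 61.5 and 73.7 RPM in the same group order. Of 4 immune markers only CD68, which cells of other kinds also express, had a mean of at least 10 reads. Its level was 61.8 to 76.0 RPM with NS shRNA, 72.5 to 97.7 with shRNA #1 and 23.9 to 30.8 with shRNA #2, and the part of these marker shifts in the changes of the family was not tested.

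Promoters of 3 genes are shown because these genes carry the main contrasts: PMAIP1 had the largest rise of the 10 genes with both hairpins, and BBC3 and BAX moved in opposite directions with the hairpins. The sequences are from RefSeq on GRCh38.p14, written 5′ to 3′ on the strand of the gene, and stop short of the first annotated transcript start. PMAIP1 (plus strand) is shown over chr18:59899746-59899995, the 250 bases before its start. BBC3 (minus strand) is shown over chr19:47232767-47232917, from 250 to 100 bases before its RefSeq start, and BAX (plus strand) over chr19:48954625-48954814, from 250 to 61 bases before it. Capitals mark exact matches, on either strand, to the CRE core TGACG, the GC box GGGCGG or the E-box CACGTG.

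PMAIP1: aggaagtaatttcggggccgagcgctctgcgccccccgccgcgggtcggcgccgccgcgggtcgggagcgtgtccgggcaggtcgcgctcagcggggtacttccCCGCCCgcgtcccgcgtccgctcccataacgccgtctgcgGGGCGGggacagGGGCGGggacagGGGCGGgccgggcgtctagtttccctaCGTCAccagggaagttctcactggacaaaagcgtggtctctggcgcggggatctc

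BBC3: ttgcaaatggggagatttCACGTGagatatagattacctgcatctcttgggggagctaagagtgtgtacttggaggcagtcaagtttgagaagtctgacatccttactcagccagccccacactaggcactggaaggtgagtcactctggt

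BAX: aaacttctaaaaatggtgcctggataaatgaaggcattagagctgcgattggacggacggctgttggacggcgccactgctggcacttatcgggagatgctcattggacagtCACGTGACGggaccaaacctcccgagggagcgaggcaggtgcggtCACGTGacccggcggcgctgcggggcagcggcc

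The PMAIP1 window held 1 CRE core, 55 to 51 bases before the start on the opposite strand, and 4 GC boxes, the farthest 146 to 141 bases before it. Windows of the same length and place held at least 1 CRE core in 21.7% and at least 1 GC box in 42.3% of 27305 RefSeq promoters. In BBC3 the only match was 1 E-box, 232 to 227 bases before the start, and 3.13% of like windows held an E-box. BAX held 2 E-boxes, 138 to 133 and 93 to 88 bases before the start, and 1 CRE core that overlaps the first of them. At least 1 E-box was in 4.28% and at least 1 CRE core in 14.9% of windows like that of BAX. Shares of windows with 4 GC boxes or 2 E-boxes were not counted. The C/EBP-ATF element TGATGNAAN did not match in the 3 windows. These are matches of letters only and describe the windows.

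**Figure D1:**
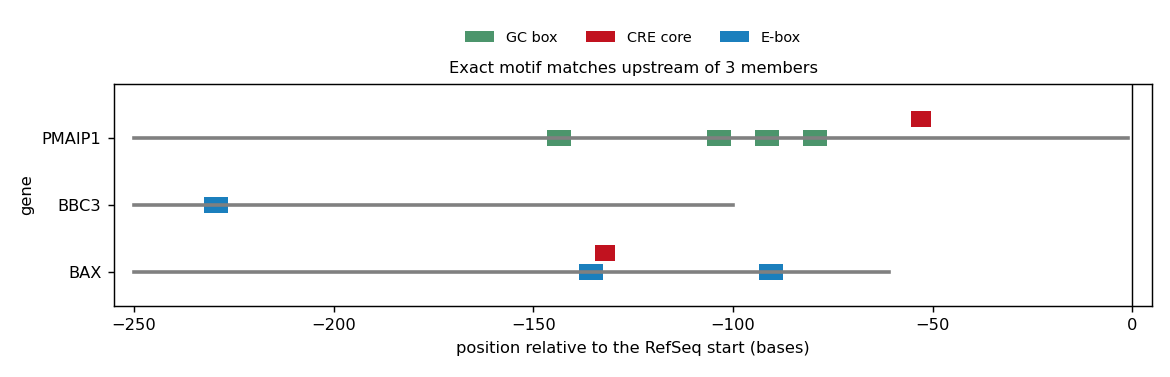
Positions of exact motif matches in the windows upstream of PMAIP1, BBC3 and BAX, in bases from the RefSeq start (horizontal axis). Grey lines are the windows examined and coloured blocks are matches. The 4 GC boxes lie in the PMAIP1 window, and the CRE core of BAX overlaps an E-box.

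Of the 10 genes, 9 had enough reads for a test and all 9 passed at an adjusted p below 0.05 in each comparison. Against NS shRNA, 6 rose and 3 fell with shRNA #1, where 66.1% of 14341 genes tested passed, 32.8% higher and 33.3% lower. With shRNA #2, 4 rose and 5 fell, where 66.9% of 14250 genes passed, 33.5% higher and 33.4% lower. With most of the transcriptome past the threshold, the count of members called says little by itself, and the directions and sizes are given gene by gene. The libraries of the groups compared did not overlap for any of the 9 genes, as for 69.4% of all genes with shRNA #1 and 69.9% with shRNA #2. BCL2L1, MCL1, PMAIP1 and BAK1 rose with both hairpins (20% of 14075 genes did), BCL2, BCL2L11 and BID fell with both (20.5%), and BBC3 and BAX rose with shRNA #1 and fell with shRNA #2 (3.8%). None of the 9 fell with shRNA #1 and rose with shRNA #2, as 4.16% of genes did. Over the 9 genes the log2 fold changes had a median of 0.22 (shRNA #1) and −0.26 (shRNA #2), beside 0.00 and 0.01 over all genes tested. In bulk RNA, fewer cells of a kind and less RNA per cell cannot be told apart.

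**Figure D2:**
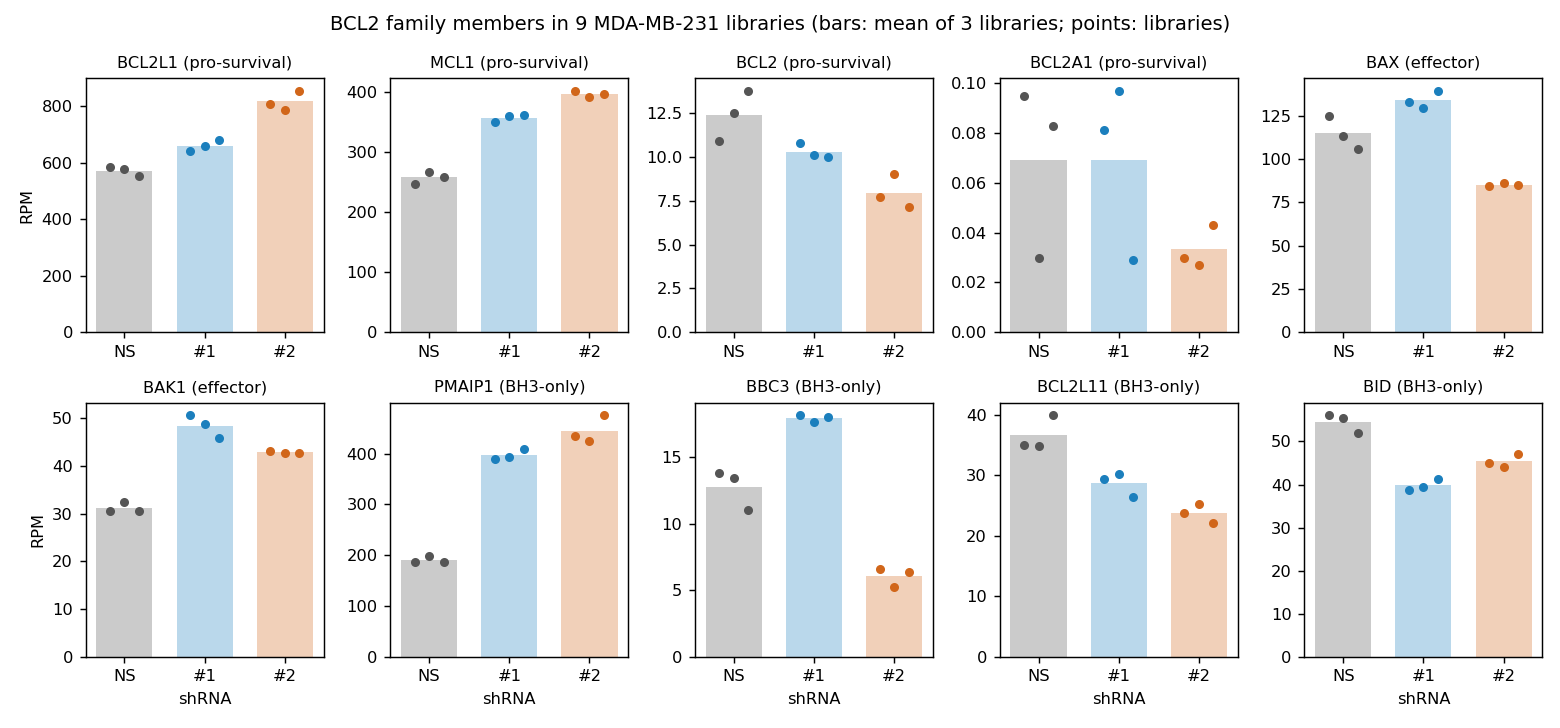
RPM (TMM-scaled reads per 1000000) of the 10 genes in the 9 libraries, 1 panel per gene with its own axis from 0. Points are libraries and bars the mean of 3. PMAIP1 runs from 187 to 198 with NS shRNA and from 389 to 476 with the ASAH1 hairpins, and BBC3 and BAX are highest with shRNA #1 and lowest with shRNA #2.

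Among the pro-survival genes, 2 rose and 1 fell with each hairpin. BCL2L1, which encodes BCL-XL (chromosome 20, 31664452 to 31723989, hg38, minus strand), was at 584, 579.6 and 553 RPM with NS shRNA, 641, 659 and 679.8 with shRNA #1 and 809.9, 787 and 856 with shRNA #2. All shRNA #2 libraries were above all shRNA #1 libraries, which were above all NS shRNA libraries. BCL2L1 rose by 0.20 ± 0.043 (standard error) on the log2 scale with shRNA #1 (limma, adjusted p = 0.00266) and by 0.52 ± 0.052 with shRNA #2 (limma, adjusted p = 9.14e-06). MCL1, a short-lived protein that holds BAK1 and binds PMAIP1 (chromosome 1, 150560895 to 150579738, minus strand), was at 247, 266 and 259 RPM with NS shRNA, 349, 359.6 and 361 with shRNA #1 and 402, 390.3 and 396 with shRNA #2. The order of the groups was that of BCL2L1, with no overlap. MCL1 rose by 0.46 ± 0.045 on the log2 scale with shRNA #1 (limma, adjusted p = 1.57e-05) and by 0.63 ± 0.051 with shRNA #2 (limma, adjusted p = 2.11e-06).

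BCL2, the founding member and the target of venetoclax (chromosome 18, 63123346 to 63320128, minus strand), was low, at 10.96, 12.5 and 13.8 RPM with NS shRNA, 10.8, 10.1 and 10.0 with shRNA #1 and 7.70, 9.06 and 7.17 with shRNA #2. The highest shRNA #1 library lay just under the lowest NS shRNA library, and the shRNA #2 libraries lay under both groups. BCL2 fell by 0.27 ± 0.098 with shRNA #1 (limma, adjusted p = 0.0330) and by 0.63 ± 0.12 with shRNA #2 (limma, adjusted p = 0.000763), on the log2 scale. The fall with shRNA #1 did not pass without NS shRNA replicate 2 or 3 or without shRNA #1 replicate 2 or 3, with adjusted p between 0.0745 and 0.109. BCL2A1, an NF-kB-induced pro-survival gene of blood cells (chromosome 15, 79960892 to 79971196, minus strand), had 1 to 4 reads in every library and was not tested.

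The effectors both rose with shRNA #1, and with shRNA #2 BAX fell while BAK1 rose. BAX (chromosome 19, 48954815 to 48961798, plus strand), which is held in the cytosol until activated, was at 125, 114 and 106 RPM with NS shRNA, 133, 129 and 139.7 with shRNA #1 and 84.2, 86.4 and 84.9 with shRNA #2. The shRNA #1 libraries were highest and the shRNA #2 libraries lowest, without overlap. BAX rose by 0.22 ± 0.064 on the log2 scale with shRNA #1 (limma, adjusted p = 0.0131) and fell by 0.42 ± 0.065 with shRNA #2 (limma, adjusted p = 0.000204). With a library left out, the rise with shRNA #1 ran from 0.16 to 0.28 and still passed, with limma adjusted p up to 0.0485. BAK1, which resides in the mitochondrial membrane (chromosome 6, 33572547 to 33580293, minus strand), was at 30.4, 32.5 and 30.5 RPM with NS shRNA, 50.6, 48.7 and 45.9 with shRNA #1 and 43.2, 42.7 and 42.7 with shRNA #2. Both ASAH1 groups were above the control, and shRNA #1 was the higher. The rise was 0.63 ± 0.060 with shRNA #1 (limma, adjusted p = 1.35e-05) and 0.47 ± 0.061 with shRNA #2 (limma, adjusted p = 6.58e-05).

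The BH3-only genes gave the largest rise and the largest fall of the 10 genes with each hairpin. PMAIP1, which encodes NOXA, a partner that binds MCL1 and marks it for degradation (chromosome 18, 59899996 to 59904305, plus strand), was at 188, 198 and 187 RPM with NS shRNA, 389, 393 and 409 with shRNA #1 and 435, 425 and 476 with shRNA #2. Every ASAH1 library was above every NS shRNA library, by 2.07-fold on average with shRNA #1 and 2.34-fold with shRNA #2. The log2 fold changes were 1.05 ± 0.044 (limma, adjusted p = 8.62e-08) and 1.22 ± 0.058 (limma, adjusted p = 6.30e-08). BBC3, which encodes PUMA, a BH3-only protein that binds all pro-survival members (chromosome 19, 47220822 to 47232766, minus strand), was at 13.8, 13.4 and 10.99 RPM with NS shRNA, 18.1, 17.6 and 18.0 with shRNA #1 and 6.57, 5.25 and 6.39 with shRNA #2. It was highest with shRNA #1 and lowest with shRNA #2, without overlap. BBC3 rose by 0.49 ± 0.091 with shRNA #1 (limma, adjusted p = 0.00103) and fell by 1.06 ± 0.12 with shRNA #2 (limma, adjusted p = 2.50e-05), on the log2 scale.

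BCL2L11, which encodes BIM, an activator of BAX and BAK1 that ERK signalling keeps low at the protein level (chromosome 2, 111119378 to 111168444, plus strand), was at 35.0, 34.9 and 39.9 RPM with NS shRNA, 29.5, 30.2 and 26.4 with shRNA #1 and 23.7, 25.2 and 22.2 with shRNA #2. The groups stood in the order NS shRNA, shRNA #1, shRNA #2, without overlap. BCL2L11 fell by 0.36 ± 0.079 with shRNA #1 (limma, adjusted p = 0.00289) and by 0.62 ± 0.080 with shRNA #2 (limma, adjusted p = 5.75e-05), on the log2 scale. BID, which caspase-8 cleaves to link death receptors to mitochondria (chromosome 22, 17734138 to 17774770, minus strand), was at 56.1, 55.4 and 52.0 RPM with NS shRNA, 38.8, 39.3 and 41.3 with shRNA #1 and 45.1, 43.98 and 47.03 with shRNA #2. It was lowest with shRNA #1, and shRNA #2 lay between. BID fell by 0.46 ± 0.055 with shRNA #1 (limma, adjusted p = 5.72e-05) and by 0.26 ± 0.061 with shRNA #2 (limma, adjusted p = 0.00325), on the log2 scale.

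A direct test between the hairpins used edgeR on the reads of all 9 libraries, and 63.9% of 14381 genes differed, 31.4% higher and 32.5% lower with shRNA #2. All 9 genes differed, 4 higher and 5 lower with shRNA #2 than with shRNA #1. None of the 9 had overlapping libraries between the hairpins, as for 67.3% of all genes tested. The largest difference was in BBC3, at −1.56 on the log2 scale (edgeR, adjusted p = 2.45e-07), then BAX at −0.65 (edgeR, adjusted p = 3.57e-06). BCL2 was lower by −0.37, BCL2L11 by −0.28 and BAK1 by −0.17, and BCL2L1 was higher by 0.31, BID by 0.19, PMAIP1 by 0.16 and MCL1 by 0.15. The differences of MCL1, PMAIP1 and BID were 0.075, 0.089 and 0.11 under upper quartile normalization and did not pass, with adjusted p of 0.132, 0.148 and 0.0932. Between the hairpins, PMAIP1 did not pass without shRNA #2 replicate 3 (adjusted p = 0.0585), nor did BAK1 without shRNA #1 replicate 1 (0.0735) or 2 (0.0513).

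**Figure D3:**
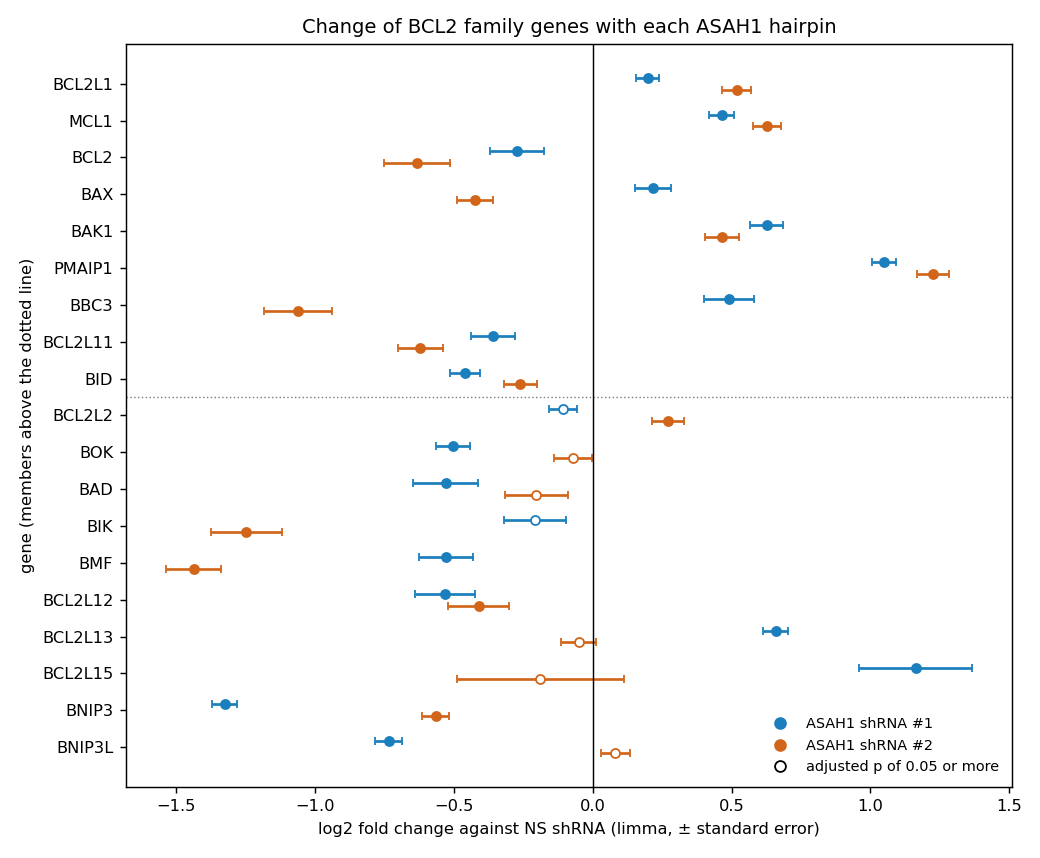
Log2 fold change against NS shRNA (limma) of 19 BCL2 family genes, with standard errors as bars. The members lie above the dotted line, ASAH1 shRNA #1 is blue and #2 orange, and open symbols did not pass. BBC3 and BAX lie on opposite sides of 0 with the hairpins.

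Levels can be set beside each other between genes only per length, so RPM without TMM scaling were divided by the kilobases of annotated exon (RPKM). With NS shRNA, BCL2L1 had the highest level at 140 ± 2.99 (SD, n = 3), followed by PMAIP1 at 89.8 ± 2.62. BAX at 45.6 ± 3.54 and MCL1 at 42.5 ± 1.76 came next and overlapped between libraries. BAK1 was at 14.5 ± 0.503, BID at 12.7 ± 0.405, BCL2L11 at 5.59 ± 0.489, BBC3 at 4.11 ± 0.459 and BCL2 at 1.01 ± 0.125. BCL2A1 was last at 0.0714 ± 0.0358. PMAIP1 was first in both ASAH1 groups, at 188 ± 4.34 with shRNA #1 above BCL2L1 at 163 ± 4.18, and at 191 ± 10.8 with shRNA #2, where it overlapped with BCL2L1 at 183 ± 7.07. With coding length in place of exon length, 6 of the 10 genes kept their rank with NS shRNA, MCL1 passed BAX and BID passed BAK1.

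Summed by role on this per-length scale, the 4 pro-survival genes were at 184 ± 2.60 (SD, n = 3) with NS shRNA, 223 ± 4.97 with shRNA #1 and 243 ± 7.02 with shRNA #2, given without a test. The 4 BH3-only genes were at 110 to 115, 204 to 212 and 198 to 219 in the same order, and PMAIP1 made up most of these sums. Without PMAIP1, the sum of BBC3, BCL2L11 and BID was 22.0 to 22.7 with NS shRNA, 19.5 to 19.6 with shRNA #1 and 14.5 to 14.9 with shRNA #2, so within these 4 genes the higher BH3-only level was that of PMAIP1. The sums cover the 10 genes only and leave out other family genes, among them BAD, also BH3-only. BAD had a mean of 130, 90.4 and 112 RPM (TMM-scaled) in the same group order, on 1708 bases of exon. Sums and shares by role therefore depend on the genes chosen. The effectors were at 60.1 ± 3.37, 76.2 ± 1.37 and 49.2 ± 0.518. TMM factors, which these sums leave out, were 1.02 to 1.04 with NS shRNA and 1.03 to 1.04 with shRNA #1. With shRNA #2 they were 0.936 to 0.945, so sums with shRNA #2 stand lower against the other groups than with TMM scaling. Shares are not affected. As a share of all 10 genes, the pro-survival genes held 51.4% to 51.9% with NS shRNA, 43.6% to 44.3% with shRNA #1 and 48.4% to 49.2% with shRNA #2. BH3-only genes held 30.9% to 31.9%, 40.9% to 41.1% and 40.9% to 42.2%, and the effectors 16.3% to 17.8%, 14.8% to 15.4% and 9.41% to 10.3%. Shares of mRNA do not give shares of protein.

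**Figure D4:**
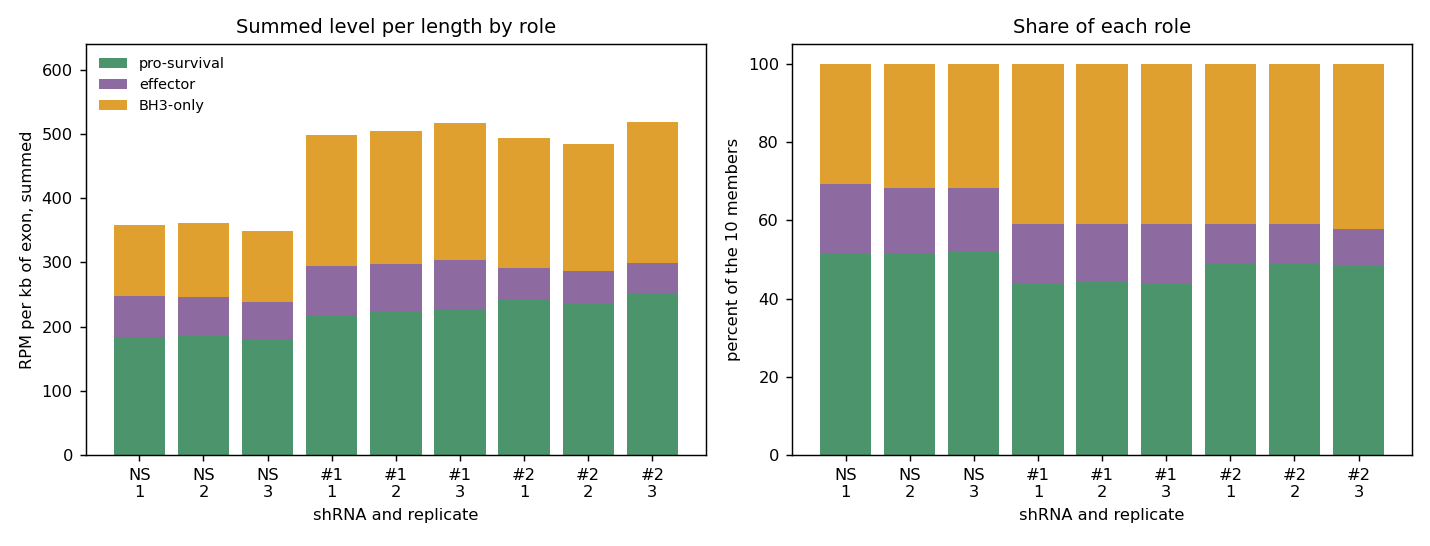
Left, RPM per kilobase of exon (RPKM), summed over the genes of each role, in each of the 9 libraries. Right, the same as a percent of the 10 genes. The BH3-only share is 30.9% to 31.9% with NS shRNA and 40.9% to 42.2% with the ASAH1 hairpins, where PMAIP1 makes up most of it, and the effector share is lowest with shRNA #2.

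The other 13 genes of the family were measured in the same fits, and 10 had enough reads for a test. With shRNA #1, 2 rose and 6 fell, and with shRNA #2, 1 rose and 4 fell, where 66.1% and 66.9% of all genes passed. Over these 10 the log2 fold changes had a median of −0.52 (shRNA #1) and −0.20 (shRNA #2). BMF, a BH3-only protein linked to the cytoskeleton, fell with both, by 0.53 and 1.44 on the log2 scale. BIK, a BH3-only protein of the endoplasmic reticulum, was at −0.21 with shRNA #1 (limma, adjusted p = 0.130) and fell by 1.25 with shRNA #2. Its value with shRNA #1 ran from −0.29 to −0.12 when a library was left out and passed without NS shRNA replicate 3 (adjusted p = 0.0499). BAD, which growth factor kinases phosphorylate, fell by 0.53 with shRNA #1 and was at −0.20 with shRNA #2 (limma, adjusted p = 0.133). With shRNA #2 BAD passed without NS shRNA replicate 3 (−0.32, adjusted p = 0.010) or without shRNA #2 replicate 3 (−0.30, 0.0218), and leaving out a library moved it between −0.32 and −0.11. BNIP3 and BNIP3L are hypoxia-induced mitophagy receptors. BNIP3 fell by 1.33 and 0.57, and BNIP3L fell by 0.74 with shRNA #1 and was at 0.08 with shRNA #2 (limma, adjusted p = 0.188).

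BCL2L12 fell with both hairpins, by 0.53 and 0.41 on the log2 scale. BCL2L13 rose by 0.66 with shRNA #1 and was at −0.05 with shRNA #2 (limma, adjusted p = 0.485). BCL2L15 rose by 1.16 with shRNA #1, or by 0.59 in 1 limma fit of all 9 libraries on log2(RPM + 1), and was at −0.19 ± 0.30 with shRNA #2 (limma, adjusted p = 0.596), with only 17 to 69 reads per library. BCL2L2, the pro-survival BCL-W gene, was at −0.11 with shRNA #1 (limma, adjusted p = 0.0882) and rose by 0.27 with shRNA #2. BOK, an effector-like member, fell by 0.50 with shRNA #1 and was at −0.07 with shRNA #2 (limma, adjusted p = 0.377). BCL2L10, HRK and BCL2L14 had at most 5 reads in any library and were not tested.

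Downstream of the family, all 13 genes of the apoptosome and mitochondrial release list were tested. With shRNA #1, 6 rose and 7 fell, and with shRNA #2, 6 rose and 3 fell, with medians of −0.15 and 0.05 on the log2 scale, beside 66.1% and 66.9% of all genes that passed. CYCS, which encodes cytochrome c, rose by 0.53 and 0.84 on the log2 scale with shRNA #1 and #2. CASP6 fell by 0.95 and 0.73, and ENDOG, the mitochondrial endonuclease, by 0.75 and 0.92. Of 6 inhibitor of apoptosis genes tested, 2 rose and 1 fell with shRNA #1 and 3 rose and 1 fell with shRNA #2, with medians of 0.11 and 0.17, counts at or under the same shares of all genes. BIRC3, which encodes cIAP2, rose by 0.82 and 0.78, and BIRC5, which encodes survivin and also serves mitosis, fell by 0.47 and 0.43.

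Upstream of the BH3-only genes, 6 of 11 transcription factor genes rose and 3 fell with shRNA #1, and 8 rose and 2 fell with shRNA #2. Of all genes, 32.8% rose and 33.3% fell with shRNA #1, and 33.5% rose and 33.4% fell with shRNA #2. Median log2 fold changes of this list were 0.60 and 0.39, beside 0.00 and 0.01 over all genes tested. The stress-induced factors ATF3 and DDIT3 had the largest mean rise over both comparisons. ATF3 was at 6.08 to 8.21 RPM with NS shRNA, 81.7 to 83.2 with shRNA #1 and 33.0 to 36.2 with shRNA #2, a rise of 3.53 and 2.29 on the log2 scale. DDIT3, which encodes CHOP, rose by 2.47 and 1.16. TP63 fell by 1.19 and 1.71 at low levels, with a mean of 1.34 RPM with NS shRNA, and fell by 0.55 and 0.75 in 1 limma fit of all 9 libraries on log2(RPM + 1).

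Of 9 genes that control the turnover of MCL1 protein, 1 rose and 4 fell with shRNA #1, and 4 rose and 1 fell with shRNA #2, with medians of 0.01 and −0.08. The latter count was 3 in all without NS shRNA replicate 2 or without shRNA #2 replicate 1 or 2. Both counts lie under the 66.1% and 66.9% of all genes that passed. GSK3B, a kinase that marks MCL1 for degradation, fell by 0.37 and 0.29 on the log2 scale. The ubiquitin ligase gene HUWE1 rose by 0.36 with shRNA #1. With shRNA #2 it was at 0.20 (limma, adjusted p = 0.0355), with libraries that overlapped those of NS shRNA. That call was lost with no filter (adjusted p = 0.0525), without the trend (0.101), with upper quartile rescaling (0.0888) and without NS shRNA replicate 1 or 2 or shRNA #2 replicate 1 or 2 (0.108 to 0.146).

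The genes most like PMAIP1 and BCL2L11 across the 9 libraries were found by Pearson's r of log2(RPM + 1) among 11631 genes with a mean of at least 100 reads. PNRC2 (r = 0.999), AREG (r = 0.999) and PHLDA1 (r = 0.998) were nearest to PMAIP1, and 623 genes had r above 0.95. SCAMP2 (r = 0.989) and GTF3C3 (r = 0.989) were among the 3 nearest to BCL2L11, with 216 genes above 0.95. The 9 libraries fall in 3 groups, so these values mostly order the group means.

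Counts are per gene, so the long and short mRNAs of BCL2L1 and MCL1, whose proteins act in opposite ways, were not separated. Exons of MCL1 share 328 bases with ADAMTSL4-AS1 and those of BBC3 share 76 bases with MIR3191 on the same strand. BCL2L2 shares 815 bases, 16.8% of its exon length, with BCL2L2-PABPN1, and BAK1 has pseudogenes on chromosomes 11 and 20 that could take reads.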

How the data were processed

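RNA of 9 MDA-MB-231 libraries, 3 per group, was sequenced. Per the labels and methods, the authors used Trimmomatic 0.36 for trimming, STAR 2.7.1a for alignment to hg38 and HTSeq for counts on genes, and normalized each hairpin with its NS shRNA libraries by DESeq2 1.28. Another paragraph of the methods names other tools, and the design text names ribosomal depletion where the protocol names oligo-dT selection. The 2 tables deposited by the authors hold a normalized signal per gene and library, that is, its reads over a size factor of the library. All values gave whole reads within 0.01 (100%). Columns with the authors' fold changes, standard errors, statistics and p-values were not used. No per-sample column was unmatched, and 28 symbols turned into dates were taken from the other table.

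Each hairpin was compared with NS shRNA by limma 3.58.1 (two-sided, trend on intensity) on log2 of the value plus a pseudocount of 1. Genes needed a mean signal of 10 or more, with Benjamini-Hochberg adjustment over all genes tested. The fold change is on that scale, which understates the change of low genes. The hairpins were compared by edgeR 4.0.16 with TMM on the recovered reads. R 4.3.3, DESeq2 1.42.0, Python 3.11.15, pandas 2.3.3 and matplotlib 3.10.9 were used. In simulated data, limma recovered 81% of genes changed 1.5-fold and 96.9% changed 2-fold for shRNA #1, and 84% and 98.0% for shRNA #2, and edgeR recovered 81% and 93.9% between the hairpins. False calls made up 3.30%, 5.26% and 3.89% of the calls in the same order. Few genes were changed in the simulation and all genes had the same dispersion. Most genes pass in the real data, so these values check the code and do not measure its power here. Chi-square per gene between replicates ran from 5.26 to 23.2, so no library copied another. Alternatives were other pseudocounts, filters, scalings, tests and fits, a replicate block and each library left out.

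The members and lists were chosen with earlier results of these data known. All members and other family genes are named, and in each other list up to 2 genes per direction that passed in the same direction with both hairpins, with the largest mean change. Some items that the rule or the lists cover are not reported here. One gene matched by an older symbol. Positions are from GENCODE v44 on hg38.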

Additional observations from a re-analysis of the deposited data

Results flagged for a closer look

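Results are listed here where the hairpins differed from each other by edgeR's test (shRNA #2 against shRNA #1, log2 scale, 3 libraries each). Of 30 genes named and tested, 22 differed, beside 63.9% of all genes tested. Groups of 3 libraries are too small for a test of a single library standing apart.

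All 9 members tested differed. BBC3 (−1.56), BAX (−0.65), BCL2 (−0.37), BCL2L11 (−0.28) and BAK1 (−0.17) were lower with shRNA #2. BCL2L1 (0.31), BID (0.19), PMAIP1 (0.16) and MCL1 (0.15) were higher.

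Among the other family genes, 8 of 10 differed. BCL2L15 (−1.41), BIK (−1.05), BMF (−0.93) and BCL2L13 (−0.72) were lower with shRNA #2. BNIP3L (0.80), BNIP3 (0.75), BOK (0.42) and BCL2L2 (0.37) were higher. BCL2L15 was at −0.66 in a limma fit on log2(RPM + 1). BAD, at 0.31 with an adjusted p of 0.0514 by edgeR, passed under 7 alternatives, among them DESeq2 (0.0200), limma of all 9 libraries (0.0495) and no filter (0.0124).

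ASAH1 differed by −0.89, with the lower level in the shRNA #2 libraries. DDIT3 (−1.32) and ATF3 (−1.25) were lower with shRNA #2, and CYCS (0.30) and CASP6 (0.21) were higher. CASP6 did not pass under upper quartile normalization (0.14, adjusted p = 0.0762). The order of the hairpins by remaining ASAH1 mRNA is that of BCL2L1, MCL1 and PMAIP1 upward and of BCL2 and BCL2L11 downward, while BAK1, BID, ATF3 and DDIT3 had their larger change with shRNA #1. BBC3 and BAX changed in opposite directions with the hairpins. For MCL1 and PMAIP1 the order did not pass under upper quartile normalization, and their per-length levels overlapped between the hairpins. A relation to the remaining ASAH1 mRNA was not tested and cannot be drawn from 2 hairpins.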

How the results depend on the processing

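Over 27 member results (9 genes, 3 comparisons) and 432 alternative values, 421 kept their direction and their side of the threshold, 11 no longer passed and 0 reversed. The count of members called was 8 to 9 with shRNA #1 and 9 throughout with shRNA #2, and 8 to 9 between the hairpins when libraries were left out, but 6 under upper quartile normalization (1 higher, 5 lower). The call lost with shRNA #1 was BCL2. For the other named genes, 973 of 1002 alternative values kept direction and side, 9 no longer passed (8 of HUWE1 with shRNA #2 and 1 of CASP6 between the hairpins), 14 newly passed (BAD, BIK, BIRC3, TP63 and HUWE1) and 6 reversed.

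Deviations from the group mean had correlations from −0.593 to 0.468 between same-numbered libraries and from −0.399 to 0.523 between differently numbered ones. Between the 2 hairpins the same-numbered values were 0.032, 0.183 and 0.468. Deviations within groups of 3 constrain each other, so these values cannot settle whether the numbers pair the samples. With the replicate block, 8 members were called with shRNA #1 (BCL2 at adjusted p = 0.0811), 9 with shRNA #2 and 9 between the hairpins, and HUWE1 with shRNA #2 did not pass (0.0852). The count of MCL1 turnover genes with shRNA #2 fell from 5 to 3 with the replicate block, no filter or no limma trend. It ran from 3 to 5 when a library was left out (3 without NS shRNA replicate 2 and without shRNA #2 replicate 1 or 2). Over alternatives that kept all libraries it ran from 3 to 6, and from 4 to 6 with shRNA #1. The cause of these differences was not tested. With coding length, 6 of 10 genes kept their rank of level.

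Directions reversed only for values that did not pass. When a library was left out, BCL2L15 with shRNA #2 ran from −0.38 to 0.085 (above 0 without shRNA #2 replicate 3). Between the hairpins, ENDOG ran from −0.30 to 0.040 (above 0 without shRNA #2 replicate 2) and BIRC5 from −0.024 to 0.095. Under upper quartile normalization BIRC5 went to −0.047 and GSK3B to −0.014. Depth limits BCL2A1, BCL2L10, HRK, BCL2L14 and BCL2L15.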

Other observations

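Ratios between members on the per-length scale, chosen after their values were seen, are given without a test. PMAIP1 to MCL1 was 2.06 to 2.17 with NS shRNA, 3.11 to 3.22 with shRNA #1 and 3.08 to 3.42 with shRNA #2. BCL2L11 to MCL1 went the other way, at 0.121 to 0.142, 0.0674 to 0.0779 and 0.0517 to 0.0597 in the same order. BAX to BAK1 was 2.97 to 3.52, 2.25 to 2.60 and 1.67 to 1.73. BAX to BCL2L1 was 0.310 to 0.347 with NS shRNA and 0.319 to 0.336 with shRNA #1, which overlap, and 0.161 to 0.178 with shRNA #2. BBC3 to PMAIP1 was 0.0403 to 0.0505, 0.0302 to 0.0320 and 0.00848 to 0.0104.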
